A study of Mus musculus with 10 samples.

Results

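A set of 10 genes of the oligodendrocyte lineage was followed in brain RNA: 7 lineage transcription factors (*Olig1*, *Olig2*, *Nkx6-2*, *Nkx2-2*, *Sox10*, *Sox8* and *Myrf*) and 3 progenitor genes (*Pdgfra*, *Cspg4* and *Gpr17*). They were picked by gene name, as 10 of the 54532 genes in the count table, and all 10 were among the 17665 genes that passed the filter on low counts. The set was chosen on the values of FTY720-treated against placebo-treated mice, so the treatment values are given as a description. No p-value of a member for treatment is printed. Counts of genes past a threshold for treatment are set beside the share of all genes and used as no test.

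Brains of 10 *Slc20a2*-HO mice, homozygous for the knockout allele Slc20a2 tm1a(EUCOMM)Wtsi, were used, with RNA from part of each brain and the rest fixed, and the knockout was shared by both groups. FTY720 (fingolimod), a sphingosine-1-phosphate receptor modulator that holds T-cells in lymph nodes, was injected intraperitoneally in dimethyl sulfoxide at 0.5 mg/kg 3 times a week for 12 weeks from the age of 1.5 months in 6 mice. The 4 placebo mice were given dimethyl sulfoxide alone. Wild-type mice and mice without injection were not analysed here, and the sex of the mice is not in the labels.

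Oligodendrocytes, the myelin-forming cells of the central nervous system, arise from progenitors that persist in the adult brain. Progenitors are recognized by the PDGF receptor alpha (*Pdgfra*), through which PDGF-A drives their proliferation, and by the NG2 proteoglycan (*Cspg4*). As they commit they pass through a stage marked by the receptor GPR17, while the basic helix-loop-helix factors OLIG1 and OLIG2, the homeodomain factors NKX2-2 and NKX6-2 and the HMG-box factors SOX8 and SOX10 specify the lineage and prepare myelin gene expression, which MYRF switches on in postmitotic cells. OLIG2 and SOX10 are present in progenitors and in mature cells alike, so these factors are not markers of a single stage. In brain RNA, fewer cells of this lineage and less RNA per cell cannot be told apart.

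Promoter sequence is shown for *Olig2*, the factor with the largest difference between the treatment groups, for *Nkx6-2*, the factor next to it in size, and for *Pdgfra*, the receptor gene by which progenitors are recognized, whose treatment groups overlapped. The sequences are from RefSeq on GRCm38.p6 and read 5′ to 3′ on the gene's own strand, with capitals marking matches to an E-box (CAGNTG, the kind of site that basic helix-loop-helix factors bind) or a CCAAT box on either strand. *Olig2* lies on the plus strand (chr16:91225300-91225456, limited to the bases ahead of the annotated first exon), *Nkx6-2* on the minus strand (chr7:139582798-139583047) and *Pdgfra* on the plus strand (chr5:75152001-75152250).
Olig2: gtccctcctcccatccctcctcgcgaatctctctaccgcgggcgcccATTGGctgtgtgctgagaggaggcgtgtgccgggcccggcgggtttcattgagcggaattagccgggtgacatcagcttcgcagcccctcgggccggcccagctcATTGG
Nkx6-2: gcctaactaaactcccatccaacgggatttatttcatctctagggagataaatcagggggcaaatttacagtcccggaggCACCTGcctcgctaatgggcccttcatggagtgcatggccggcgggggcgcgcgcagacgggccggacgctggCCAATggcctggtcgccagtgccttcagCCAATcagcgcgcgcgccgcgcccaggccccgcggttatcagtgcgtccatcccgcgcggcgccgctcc
Pdgfra: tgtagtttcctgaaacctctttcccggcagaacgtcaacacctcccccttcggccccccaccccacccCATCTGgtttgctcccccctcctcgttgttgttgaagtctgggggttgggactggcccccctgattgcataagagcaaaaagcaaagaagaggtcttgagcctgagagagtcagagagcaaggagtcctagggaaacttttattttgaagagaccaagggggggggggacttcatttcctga

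The *Olig2* stretch held 2 CCAAT boxes, both on the minus strand and so printed as ATTGG, at 203 and 98 bases before the RefSeq start, and no E-box. The *Nkx6-2* promoter held 1 E-box at 170 bases and 2 CCAAT boxes at 97 and 69 bases before the start. The *Pdgfra* promoter held 1 E-box at 182 bases before the start and no CCAAT box. Of all 32851 mouse promoters of that source searched in the same way, 44.8% held an E-box and 33.8% a CCAAT box, so either match is common. A SOX core (ACAAAG) and a homeodomain core (TAATTA), carried by 16.5% and 4.84% of promoters, were in none of the printed stretches, and no matches overlapped. Among the 6 members in that source, *Nkx2-2* also had 1 E-box, while *Cspg4* and *Sox8* had none of the 4 motifs.

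Counts summed to between 14772745 and 18303981 per mouse, and those of the 10 genes ran from 75 (*Nkx2-2*) to 3475 (*Olig1*). The mice stood apart by the digit that follows the group letter in their names: the summed level of 8 cerebellar granule cell markers was 138 to 160 CPM (library-scaled counts, by TMM) in the 4 whose digit is 1, which are 3 FTY720 mice and 1 placebo mouse, and reached 1146 to 1251 CPM in the 6 whose digit is 3, which are 3 of each. The labels do not say what the digit stands for. *Slc20a2* itself had 89 to 294 counts per mouse, with 10.8 ± 3.46 CPM (SD, n = 6) after FTY720 and 12.8 ± 3.19 CPM (n = 4) after placebo, and followed the digit (8.25 against 13.9 CPM for digits 1 and 3).

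*Olig2*, *Olig1* and *Nkx6-2* were lower in FTY720-treated than in placebo-treated brains, at 0.679, 0.742 and 0.698 times the placebo level. The means of *Nkx2-2*, *Sox8*, *Myrf*, *Pdgfra*, *Cspg4* and *Gpr17* differed by less than the SD within each group. All members but *Sox8*, *Pdgfra* and *Gpr17* had a negative log2 fold change. *Olig1*, *Olig2* and *Nkx6-2* (3 of 10) had an unadjusted p under 0.05 and were lower, beside 1.57% of the 17665 genes tested. Over all genes, none passed an adjusted p of 0.05 in edgeR's quasi-likelihood test (smallest 0.99992), 461 had an unadjusted p under 0.05, and DESeq2 also called none. Since the genes were selected on this contrast, the count carries no weight as a test, and it was 1 (*Olig2*) without P3-612 or without P1-623.

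*Olig2* (ENSMUSG00000039830, chr16:91225457-91228677, plus strand) is needed to specify oligodendrocyte progenitors. Its level was 19.8, 25.8 and 29.7 CPM at the lowest, median and highest FTY720 mouse, and 39.4, 34.5, 35.2 and 40.5 CPM in the placebo mice P1-623, P3-612, P3-904 and P3-907. Every FTY720 mouse was below every placebo mouse, a pattern that 0.368% of genes showed in this direction, and *Olig2* was the only member with it. The means were 25.4 ± 3.53 (SD, n = 6) and 37.4 ± 3.0 CPM (n = 4), with a log2 fold change of -0.56 (standard error 0.12).

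*Olig1* (ENSMUSG00000046160, chr16:91269772-91271933, plus strand), the paralog 41094 bases downstream of *Olig2*, promotes maturation and repair. It was at 91.9, 132 and 164 CPM at the lowest, median and highest FTY720 mouse, and at 209, 192, 130 and 188 CPM in P1-623, P3-612, P3-904 and P3-907. The groups overlapped through P3-904 alone, whose value lay below those of 3 FTY720 mice. The log2 fold change was -0.43 (standard error 0.17), and the number of *Olig1* counts per *Olig2* count was 4.59 to 7.09 after FTY720 and 3.70 to 5.56 after placebo, so the pair did not move in a fixed ratio from mouse to mouse. Exons of *Olig1* overlap the non-coding gene *Gm15966* on the other strand.

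*Nkx6-2*, a homeodomain factor of myelinating oligodendrocytes, was at 13.7, 17.1 and 25.4 CPM at the lowest, median and highest FTY720 mouse. In the placebo mice it was at 35.4, 27.0, 18.7 and 24.3 CPM in the same order as above. The groups overlapped, with P3-904 again the lowest placebo mouse, and the log2 fold change was -0.52 (standard error 0.21), or -0.34 without P1-623. Exons of *Nkx6-2* overlap *Inpp5a* on the other strand. As the strand setting of the counting is not stated, reads from the pair may not be separable, nor may those of *Olig1* and *Gm15966*. Whether exons of the other genes lie in these overlaps was not examined.

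**Figure D1:**
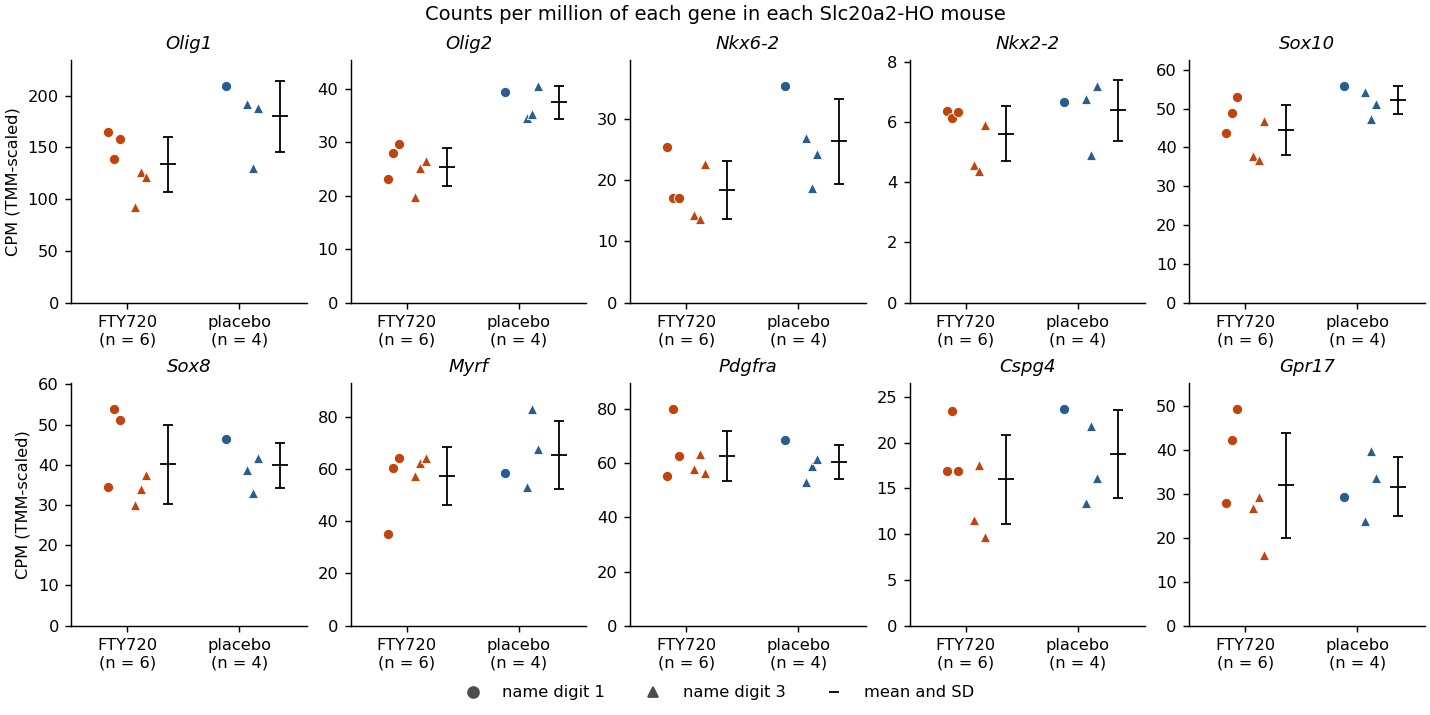
CPM (TMM-scaled, axes starting at 0) of each gene in each mouse, for FTY720 (orange, n = 6) and placebo (blue, n = 4), with circles for mice of digit 1 and triangles for mice of digit 3, and a bar for mean and SD. For Olig2 the highest FTY720 mouse is at 29.7 CPM and the lowest placebo mouse at 34.5 CPM, and the groups of the other 9 genes overlap.

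The remaining factors had smaller differences. *Sox10*, the SOX factor that directly activates myelin genes, was at 36.7, 45.3 and 52.9 CPM at the lowest, median and highest FTY720 mouse and at 47.4 to 55.8 CPM in the placebo mice, with a log2 fold change of -0.23 (standard error 0.12). *Nkx2-2*, which times differentiation, was the lowest of the members in CPM, at 5.62 ± 0.907 (n = 6) and 6.39 ± 1.02 CPM (n = 4), with a log2 fold change of -0.19 (standard error 0.17). *Myrf*, the activator of myelin genes, was at 57.3 ± 11.2 and 65.4 ± 13.1 CPM, also with a log2 fold change of -0.19 (standard error 0.18). *Sox8*, a partly redundant relative of *Sox10*, stood at 40.1 ± 9.88 and 39.9 ± 5.6 CPM. For these 4 genes the groups overlapped over all mice. The *Myrf* value was -0.08 without F1-622 and -0.06 without P3-904, and the *Nkx2-2* value was -0.12 without F3-612 or P3-907 and -0.29 without P3-904. The overlap of *Nkx2-2* with its antisense gene *Nkx2-2os*, and of *Sox8* with *2810468N07Rik*, leaves their counts uncertain in the same way as for *Nkx6-2*.

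None of the 3 progenitor genes had an unadjusted p under 0.05, and the groups overlapped for each. *Pdgfra* was at 55.4, 60.2 and 79.9 CPM at the lowest, median and highest FTY720 mouse, and at 68.5, 53.1, 59.1 and 61.4 CPM in P1-623, P3-612, P3-904 and P3-907. Its groups overlapped between 55.4 and 68.5 CPM, with 1 FTY720 mouse above and 1 placebo mouse below that range, and the log2 fold change was 0.05 (standard error 0.12). *Gpr17*, a receptor of committed precursors, had means of 31.9 ± 11.9 (n = 6) and 31.6 ± 6.78 CPM (n = 4), and *Cspg4* had 16.0 ± 4.89 and 18.7 ± 4.79 CPM with a log2 fold change of -0.23 (standard error 0.24). Single mice moved the *Cspg4* value, from -0.09 without P1-623 to -0.37 without F1-624. *Gpr17* was the most spread of the 3, from 16.1 to 49.2 CPM among the FTY720 mice. Exons of *Pdgfra* overlap *Gm42802* and *Gm42803* on the opposite strand, and exons of *Gpr17* overlap *Lims2* there.

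Set against each other within a mouse, *Olig2* had 34.3 to 47.3 counts per 100 *Pdgfra* counts in the FTY720 mice (40.8 ± 5.58, n = 6) and 57.6 to 65.9 in the placebo mice (62.0 ± 4.06, n = 4), a ratio of the member that separated the groups to one that did not, and so no addition to the values above. The median log2 fold change was -0.23 over the 7 transcription factors and 0.01 over the 3 progenitor genes, beside -0.003 over all genes tested.

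The gap between the medians of the factors and the progenitor genes was smaller within each digit than over all mice, though this was not tested. In digit 1 the medians were -0.20 for the factors and -0.05 for the progenitor genes, while in digit 3 the progenitor median was the lower. Within digit 3, with 3 mice in each group, all 7 factors had negative log2 fold changes, with a median of -0.35, and so did *Cspg4* (-0.41, standard error 0.24) and *Gpr17* (-0.43, standard error 0.26), so that the progenitor median was -0.41. *Pdgfra* was at 0.03 (standard error 0.14). *Olig1*, *Olig2* and *Sox10* were lower in every FTY720 mouse than in every placebo mouse of digit 3, as were 6.52% of all genes tested. Within digit 1, where the placebo side is P1-623 alone and its spread is assumed to be like that of the other mice, *Nkx6-2* was at -0.84 (standard error 0.31), *Olig2* at -0.55 (standard error 0.20), *Olig1* at -0.44 (standard error 0.23) and *Gpr17* at 0.45 (standard error 0.38). The log2 fold changes of *Gpr17* in the 2 digits differed by 0.88 with a standard error of 0.47, and those of *Olig2* were -0.55 and -0.62. With the digit as a covariate over all 10 mice, the medians were -0.29 for the factors and -0.16 for the progenitor genes. In that fit *Sox10* was at -0.29 (standard error 0.10) and joined *Olig1*, *Olig2* and *Nkx6-2* under an unadjusted p of 0.05, making 4 of 10 members lower beside 7.79% of all genes.

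**Figure D2:**
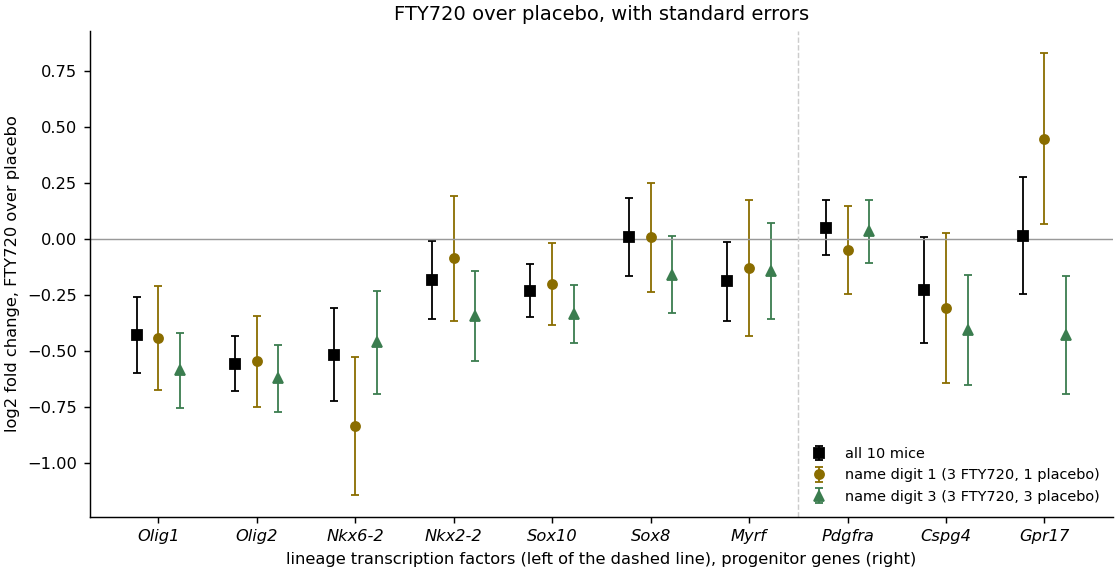
Log2 fold change of FTY720 over placebo for each gene, with bars of 1 standard error, over all 10 mice (squares), within digit 1 (circles) and within digit 3 (triangles). Olig2 sits between -0.62 and -0.55 in all 3, Pdgfra between -0.05 and 0.05, and Gpr17 at 0.45 in digit 1 and -0.43 in digit 3.

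The members were not chosen on the contrast between the digits, which was tested over all 17665 genes with treatment as a covariate (edgeR quasi-likelihood test, Benjamini-Hochberg adjustment). *Olig1* and *Sox8* were lower in mice of digit 3 and 9 of the 10 members had a negative log2 fold change. *Olig1* changed by -0.40 (standard error 0.13, adjusted p = 0.0383), with means of 168 ± 29.8 CPM in digit 1 (n = 4) and 142 ± 39.8 CPM in digit 3 (n = 6). *Sox8* changed by -0.40 (standard error 0.14, adjusted p = 0.0413), with means of 46.4 ± 8.56 CPM in digit 1 (n = 4) and 35.8 ± 4.3 CPM in digit 3 (n = 6). So 2 of 10 members were called lower, beside 14.4% of all genes lower and 13.9% higher, which puts the members' share near the background. The values of all 10 members overlapped between the digits.

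Both calls depended on single mice and on the treatment covariate, without which *Olig1* was at -0.24 (adjusted p = 0.357) and *Sox8* at -0.37 (adjusted p = 0.0559). When single mice were left out, the adjusted p of *Olig1* ranged from 0.0191 to 0.112 and that of *Sox8* from 0.0101 to 0.121, and each was under 0.05 in 4 of the 10 fits. The *Olig1* call was lost without F1-622, F1-918, F3-609, F3-612, F3-908 or P1-623, and the *Sox8* call without F1-624, F1-918, F3-609, F3-612, P1-623 or P3-904, with log2 fold changes of -0.45 to -0.31 for *Olig1* and -0.51 to -0.32 for *Sox8* over the 10 fits. *Cspg4* missed the threshold at -0.53 (standard error 0.19, adjusted p = 0.0508) and passed it without F3-612 (adjusted p = 0.0237) or without P3-904 (adjusted p = 0.0217). The other progenitor genes were at -0.45 for *Gpr17* (standard error 0.24, adjusted p = 0.172) and -0.19 for *Pdgfra* (standard error 0.11, adjusted p = 0.209). *Nkx6-2* was at -0.36 (standard error 0.18, adjusted p = 0.151), *Nkx2-2* at -0.26 (standard error 0.16, adjusted p = 0.246) and *Sox10* at -0.22 (standard error 0.10, adjusted p = 0.126). *Olig2*, the member with the clearest treatment difference, was at -0.15 (standard error 0.12, adjusted p = 0.334), and *Myrf* was the only member above 0, at 0.21 (standard error 0.17, adjusted p = 0.365).

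Other cell and region markers moved with the digit. All 8 cerebellar granule cell markers and all 5 tested hindbrain markers were higher in digit 3 (median log2 fold changes of 3.06 and 7.09). The hindbrain fold rests on values near the floor: the 5 markers summed to 0.96 to 2.23 CPM in digit 1 and 53.8 to 74.1 CPM in digit 3. Lower in digit 3 were 8 of 9 cortex and striatum markers and 7 of 8 microglia markers (medians of -0.51 for both). The part of these cells and regions in the members' digit values was not tested.

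**Figure D3:**
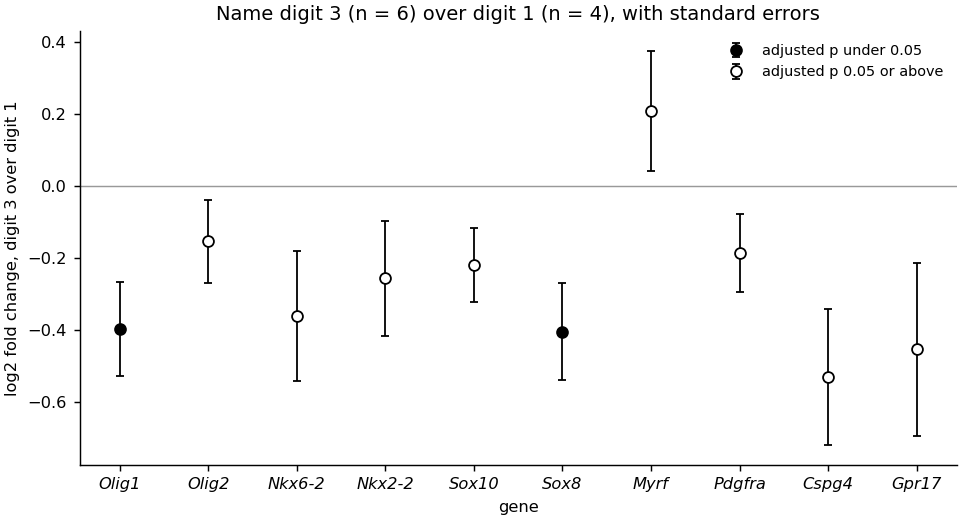
Log2 fold change of digit 3 (n = 6) over digit 1 (n = 4) for each gene with treatment as a covariate, with bars of 1 standard error and filled symbols for an adjusted p under 0.05. Only Olig1 and Sox8 (both -0.40) are filled, Cspg4 is lowest at -0.53 and Myrf highest at 0.21.

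Scaled to gene length, the members spanned a wide range of levels. *Olig1* was highest in all 10 mice, with a median of 67.9 FPKM (range 42.4 to 95.2). The deposited FPKM are fragments scaled to gene length and to a library size other than the summed counts. *Sox10* was next at 15.6 FPKM (11.99 to 17.99), followed by *Sox8* at 12.1, *Olig2* at 11.3 and *Nkx6-2* at 10.7 FPKM. *Myrf* (7.13), *Pdgfra* (5.94) and *Gpr17* (5.58) formed a lower set, and *Nkx2-2* (2.15) and *Cspg4* (1.40) were lowest. *Sox8* exceeded *Olig2* in all 6 FTY720 mice and in 0 of the 4 placebo mice. That sets the member that separated the groups against one that did not, and so adds nothing to the *Olig2* values above. *Olig2* exceeded *Nkx6-2* in 6 of 10 mice, *Myrf* exceeded *Pdgfra* in 7 and *Pdgfra* exceeded *Gpr17* in 6, so the order of these neighbours varied from mouse to mouse, whereas *Gpr17* exceeded *Nkx2-2* in all 10.

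**Figure D4:**
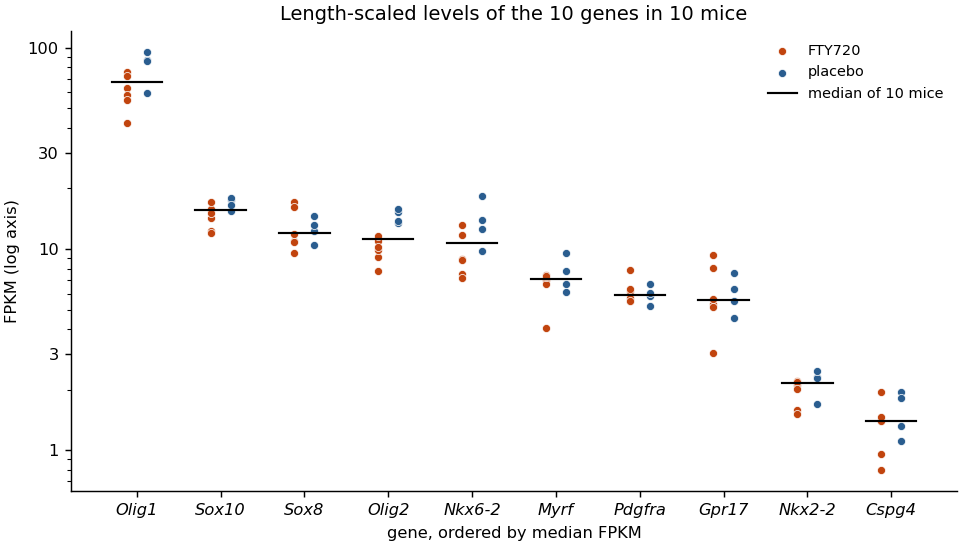
FPKM of each gene (log axis) in the FTY720 (orange) and placebo (blue) mice, ordered by the median of 10 mice (black line). Olig1 stands alone at a median of 67.9 FPKM, the 4 genes after it lie at medians from 10.7 to 15.6 FPKM, and Cspg4 is lowest at 1.40 FPKM.

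The members were also compared with one another over mice after the mean of mice with the same treatment and digit was subtracted, which leaves the group differences out. For this, 9 mice entered, since P1-623 is the only placebo mouse of digit 1. Of the 45 pairs none had an adjusted p under 0.05 and 4 had an unadjusted p under 0.05, in a two-sided exact permutation test over 216 rearrangements within groups, whose smallest p is 0.00463. With 45 pairs, a single pair at that p could not pass the adjustment. *Nkx6-2* and *Gpr17* were inversely related, with r = -0.965 (Spearman rho -0.883, both p = 0.00463, the smallest possible by permutation, both adjusted to 0.208). The value was -0.986 to -0.943 with each mouse left out and -0.910 without the 2 mice farthest from the median of *Nkx6-2*. *Olig2* went with *Sox8* (r = 0.823, rho 0.683, permutation p = 0.0232 and 0.0694, adjusted 0.298 and 0.479), with r = 0.65 without the 2 farthest mice.

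*Pdgfra* went with *Cspg4* (r = 0.695, rho 0.80, permutation p = 0.0278 and 0.0231, adjusted 0.298 and 0.375), and r was 0.793 without the 2 farthest mice. *Nkx6-2* went with *Nkx2-2* (r = 0.777, rho 0.917, permutation p = 0.0463 and 0.0324, adjusted 0.298 and 0.375), and r was 0.832 without the 2 farthest. Over all pairs of a transcription factor with a progenitor gene, r was positive in 8 of 21 and negative in 13 (-0.96 to 0.70). The 3 pairs of progenitor genes were positive (0.58 to 0.70), as were 16 of the 21 pairs of factors. *Myrf* was positive with all 3 progenitor genes (0.46 to 0.70). *Olig1*, *Nkx6-2*, *Nkx2-2* and *Sox10* were negative with them in all 12 pairs (-0.96 to -0.05). The paralogs *Olig1* and *Olig2* had r = 0.418 (rho 0.267, permutation p = 0.352 and 0.528, adjusted 0.537 and 0.735), which became -0.104 without the 2 farthest mice.

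**Figure D5:**
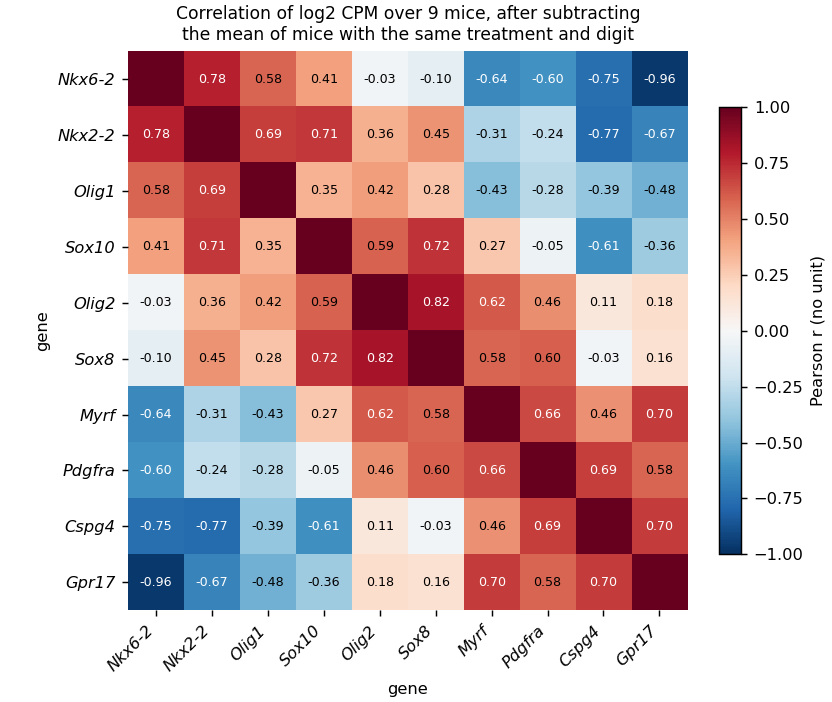
Pearson r (colour and printed value, no unit) of log2 CPM between each pair of genes over 9 mice, after the mean of the mice with the same treatment and digit was subtracted. The block of progenitor genes at the lower right is positive (0.58 to 0.70), and so is Myrf with each of them (0.46 to 0.70). Nkx6-2 and Gpr17 form the most negative pair, at -0.96.

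Among 14041 protein-coding genes with a mean of at least 1 CPM, those whose log2 CPM followed *Olig2* most closely over the 10 mice, centred within each digit, were *Flad1* (r = 0.983), *Kcnh2* (0.981), *Rbfox3* (0.979), *Sema4c* (0.978) and *Acsbg1* (0.976). *Rbfox3* encodes the neuronal marker NeuN and *Kcnh2* a potassium channel. Those nearest to *Pdgfra* were *Cadps2* (0.964), *Vwa3a* (0.959), *0610030E20Rik* (0.950), *Ppp1r3e* (0.937) and *Nanos1* (0.934). These r values keep the treatment difference and were picked as the highest of many, so they describe likeness only.

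Other genes of the lineage were taken from lists of known progenitor, committed and myelin genes. Of 18 further progenitor genes none had an unadjusted p under 0.05 for FTY720 (median log2 fold change 0.02), the largest differences being those of *Emid1* (-0.37) and *C1ql1* (-0.35). With the digit as a covariate 4 of the 18 were lower, *C1ql1* (-0.55), *Rlbp1* (-0.49), *Cspg5* (-0.37) and *Matn4* (-0.32), beside 7.79% of all genes lower and 4.98% higher in that fit. Of 14 genes of committed and newly formed oligodendrocytes also none did (median -0.16), with *Tmem163* at -0.34, *Prom1* at 0.26, *Enpp6* at -0.26 and *Bmp4* at -0.22, and with the digit as a covariate *Prom1* was higher (0.43) and *Sirt2* lower (-0.26), with *Enpp6* at -0.08 and *Bmp4* at -0.41. Of 22 genes of myelin and mature oligodendrocytes, 7 had an unadjusted p under 0.05 and were lower and none was higher, beside the 1.57% of all genes, and 18 had a negative log2 fold change (median -0.19). These included the connexin gene *Gjb1* (-0.65, standard error 0.15) and the myelin-associated glycoprotein *Mag* (-0.46, standard error 0.13), while *Opalin* was at -0.48 (standard error 0.22). With the digit as a covariate 7 of the 22 were again lower and none higher, beside 7.79% of all genes lower. The median in that fit was -0.12, and the 7 were not all the same genes, with *Opalin* (-0.62) now among them.

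Of 34 factors that act with or against the members, 33 were tested, and none had an unadjusted p under 0.05 for FTY720 (median 0.01), with *Sox11* at 0.35, the Notch effector *Hes5* at -0.34, the helix-loop-helix partner *Tcf3* at -0.27 and *Chd7* at -0.25. With the digit as a covariate 2 of the 33 were lower, *Hes5* (-0.65) and *Pou3f1* (-0.43), a share below the 7.79% of all genes lower in that fit, while *Chd7* turned to 0.16 (standard error 0.14) and *Sox11* was at 0.15. None of 5 PDGF ligand and receptor genes did either, though *Pdgfd* was higher with the digit as a covariate (0.35), and *Pdgfa*, which encodes the main ligand of the *Pdgfra* product, was at 37.8 ± 7.05 (n = 6) and 35.7 ± 5.13 CPM (n = 4). Of the markers of other cells, 3 of 8 endothelial markers had an unadjusted p under 0.05 and were higher after FTY720, beside 1.04% of all genes higher, 7 of 8 were positive (median 0.40), and their sum was 175 to 290 CPM in FTY720 mice and 158 to 185 CPM in placebo mice. With the digit as a covariate 7 of the 8 were higher, beside 4.98% of all genes higher in that fit. Of 8 tested mural markers 1 was higher and of 7 fibroblast markers 1 was lower at that threshold, and none of 8 astrocyte or 9 neuron markers passed it (with the digit as a covariate, 1 and 2 of them were lower, beside the same 7.79%). All 8 cerebellar granule cell and all 5 tested hindbrain markers had negative log2 fold changes for FTY720, none past the threshold, with medians of -0.40 and -0.71, which were 0.01 and -0.31 with the digit as a covariate. The part of these other cells in the members' values was not tested.

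By digit, 7 of the 18 progenitor genes were lower in digit 3 and 3 higher at an adjusted p under 0.05, led by *Cspg5* (-0.78, adjusted p = 0.000447), *Matn4* (-0.80, adjusted p = 0.00135) and *Rlbp1* (-0.83, adjusted p = 0.00277), all lower. The counts by digit stand beside 14.4% of all genes lower and 13.9% higher, which several of them are near. Of the 14 committed-cell genes 2 were higher, *Prom1* (0.69, adjusted p = 0.00504) and *Enpp6* (0.61, adjusted p = 0.0181). Of the 22 myelin genes 4 were higher and 3 lower, the higher being *Anln* (0.82, adjusted p = 0.000229), *Ermn* (0.60, adjusted p = 0.00127), *Ugt8a* (0.73, adjusted p = 0.0115) and *Aspa* (0.51, adjusted p = 0.0127). Of the 33 regulators 6 were higher and 7 lower, with the chromatin remodeller *Chd7* at 2.24 (adjusted p = 1.2e-06), *Pou3f1* at -1.03 (adjusted p = 0.000245) and *Hes5* at -1.21 (adjusted p = 0.000999). The ligand genes *Pdgfa* (-0.39, adjusted p = 0.0214), *Pdgfb* (-0.50, adjusted p = 0.0157) and *Pdgfc* (-0.47, adjusted p = 0.0252) were lower in digit 3, *Pdgfd* was higher (1.19, adjusted p = 0.000211) and *Pdgfrb* was at 0.02 (adjusted p = 0.931). All adjusted p-values here are from the same edgeR fit over all genes as for the members.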

How the data were processed

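Total RNA was isolated with TRIzol and libraries were made with the NEBNext Ultra kit. Per the submitters' processing notes, CASAVA 1.8, fastp, HISAT2 2.0.5, featureCounts 1.5.0-p3 and DESeq2 1.20.0 were used with GRCm38 (mm10); the annotation release and strand setting are not given in the sources used here. The authors deposited whole-number counts per gene and mouse and FPKM values made from them. Coordinates were checked against GENCODE M21.

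Counts of 14772745 to 18303981 per mouse were filtered with filterByExpr, scaled by TMM and fitted with edgeR 4.0.16 (quasi-likelihood, R 4.3.3) over all genes, for treatment with no covariate and for the digit with treatment as a covariate. Within-digit folds come from 1 fit with a term for each combination of treatment and digit. Scripts were tested on simulated data. The alternatives were DESeq2 1.42.0, limma 3.58.1 (voom, and log2 of FPKM plus 0.1 or 1), RLE and upper-quartile scaling, no filter, other covariates or subsets, and each mouse left out. FPKM served for levels between genes.

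The members and lists were chosen with earlier results of these data known. From each list the text names from the up to 4 genes with the smallest p for the digit and the up to 4 with the largest fold for FTY720, at a mean of at least 1 CPM, apart from a gene that is not reported here. Replicate p-values measure the spread between these mice.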

Additional observations from a re-analysis of the deposited data

Results flagged for a closer look

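Of 20 sets of values (10 members in 2 treatment groups), 2 held a mouse far from the rest of its group, and chance gives about 1 in 20. *Myrf* was at 35.1 CPM in F1-622, where the next FTY720 mouse was at 57.4 CPM, a gap of 0.767 of the whole range, above Dixon's critical value for 6 samples. *Pdgfra* was at 79.9 CPM in F1-624, where the next FTY720 mouse was at 63.5 CPM, a gap of 0.673 of the range.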

How the results depend on the processing

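The count of members with an unadjusted p under 0.05 for FTY720, 3 in all, was 1 to 4 with each mouse left out, 1 without P3-612 or P1-623, and 4 with the digit as a covariate. Every transcription factor except *Sox8*, and *Cspg4*, kept a negative log2 fold change in all 20 alternatives, with *Olig2* at -0.62 to -0.50, *Olig1* at -0.59 to -0.34 and *Nkx6-2* at -0.65 to -0.34. *Sox8* (-0.16 to 0.09), *Gpr17* (-0.42 to 0.15) and *Pdgfra* (-0.03 to 0.12) had either sign, and so did the progenitor median (-0.40 to 0.08), while the median of the factors stayed at -0.34 to -0.19. The count of members with an adjusted p under 0.05 for the digit, 2 in all, was 5 with no filter on low counts, 3 with DESeq2 or limma-voom, 1 with limma on log2(FPKM + 0.1) or on log2(FPKM + 1), 0 with no treatment covariate, 1 with the leading digit of the mouse number as a further covariate, 0 in the 6 FTY720 mice alone and 0 to 2 with each mouse left out. The 20 alternatives called *Olig1* in 11, *Sox8* in 10, *Cspg4* in 5, *Nkx6-2* in 2 and *Gpr17* in 1. The cause of these changes was not tested.

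Over all genes, the 461 with an unadjusted p under 0.05 for FTY720 became 2256 with the digit as a covariate, 1283 in the 6 mice of digit 3, 1117 with no filter, 984 without P3-904, 300 without P3-612 and 281 without P3-907, and 0 passed the adjustment in each. The 5010 with an adjusted p under 0.05 for the digit became 2593 without P1-623, 2908 without F3-609 and 2913 in the FTY720 mice alone, and rose to 5577 with no filter, 5716 with DESeq2 and 6046 without P3-612. No paired analysis was possible because the names of the FTY720 and placebo mice share only the number 612. With 1 placebo mouse of digit 1, treatment values within that digit have no replicate on the placebo side.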
